A study of Mus musculus with 12 samples.

Results

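The 10 genes described here encode subunits and initiation factors of RNA polymerase I (Pol I) and abundant proteins of the nucleolus, the nuclear body in which ribosomes are made. They were Polr1a, Polr1b, Polr1c, Rrn3, Ubtf, Fbl, Nop56, Nop58, Ncl and Npm1, taken by gene name from a table of 54345 genes. All 10 were measured in every library, with between 155 (Polr1c, DOX replicate 3) and 34177 (Ncl, D_DXZ replicate 3) reads.

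Poly(A) RNA of H9c2 cells, an established heart myoblast line, was sequenced in 12 libraries after 6 h. The Unt group (n = 3) received no drug. The DOX group (n = 3) received doxorubicin, an anthracycline chemodrug that intercalates into DNA and poisons topoisomerase II. The D_DXZ group (n = 3) received doxorubicin with dexrazoxane, an iron chelator and clinical cardioprotectant, and the D_MgHCF group (n = 3) received doxorubicin with magnesium hexacyanoferrate nanocatalysts, so that all groups but Unt share doxorubicin. A group with MgHCF or dexrazoxane alone was not analysed here, and the doses in the sequenced cells are not given in the sources used here. The study describes the cells as rat, whereas the sample labels name mouse and the deposited table carries mouse genes. How well rat reads were assigned may differ from gene to gene, which bears on levels compared between genes and less on a gene compared between groups. The labels number the replicates but do not say that they came from separate cultures, so the p-values measure the spread between these libraries, which may be technical.

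As background, Pol I transcribes the ribosomal RNA genes into a long precursor. UBF (Ubtf) opens these genes and RRN3 joins the polymerase to its promoter. In the nucleolus the precursor is then methylated at sites chosen by small nucleolar RNAs (snoRNAs), cleaved and packed with ribosomal proteins, and this is among the most costly activities of a growing cell. Doxorubicin is known to interfere with Pol I transcription, and some nucleolar proteins leave the nucleolus when that transcription stops. The present values are of mRNA in whole cultures and are scaled per library. They show levels relative to the rest of a library, and neither the number of cells nor the amount of RNA per cell. Poly(A) selection leaves the ribosomal RNA precursor itself unmeasured.

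Each library held between 16626514 and 19365119 reads on genes. The deposited values are FPKM, fragments per kilobase of gene after a correction for library size. Relative to a correction by the summed reads, it divided the values by 1.32 to 1.38 for Unt libraries, by 0.647 to 0.784 for DOX, by 0.747 to 0.892 for D_DXZ and by 1.26 to 1.43 for D_MgHCF. As a result the median log2 difference between DOX and Unt, over 12434 genes with FPKM of at least 1 in 3 libraries, was 0.02 on the deposited scaling, -0.68 when the values were scaled to the summed reads and -1.18 as TPM (FPKM as a share of their sum). Between D_MgHCF and Unt the same median was -0.07, -0.06 and -0.22. For the 10 genes, directions below are therefore given with what became of them under these scalings and under quantile normalization. The marker sums in this paragraph are on the deposited scaling only. On it the FPKM of all genes in a library summed to 216899 to 230292 in Unt and 498756 to 627769 in DOX. The sums were 447052 to 549680 in D_DXZ and 220276 to 290996 in D_MgHCF, so directions of the markers may differ under another scaling. Pairwise correlations between replicates were 0.991 to 0.996 within Unt, DOX and D_DXZ and 0.957 to 0.988 within D_MgHCF. Of the markers of muscle precursors, Vim was at 93.4 to 1136 FPKM, Des at 0.339 to 1.57, Cdh15 at 0 to 1.04, and Myod1, Myf5, Myog and Pax7 were at 0.126 or less. Among cardiac genes Gata4 reached 2.17 to 25.5 FPKM, Tbx5 was at 0 in all 12 libraries, and Nkx2-5, Actc1, Myh6, Ryr2 and Tnnt2 stayed below 1. The summed list of muscle precursor markers (7 genes, nearly all of it Vim) was at 222 to 270 FPKM in Unt and 871 to 1137 in DOX, with 694 to 879 in D_DXZ and 95.9 to 158 in D_MgHCF. That of fibroblast markers (4 genes, nearly all of it Col1a1 and Col1a2) was at 45.1 to 51.1, 97.3 to 122, 76.6 to 103 and 22.0 to 39.6 in the same order of groups. The summed cardiac list (7 genes, mostly Gata4) was at 9.80 to 11.0 FPKM in Unt and 3.14 to 5.82 in DOX, with 3.04 to 4.29 in D_DXZ and 14.9 to 26.4 in D_MgHCF. The summed list of leukocyte, endothelial and epithelial markers (5 genes, mostly Cd68) was at 0.926 to 1.17 FPKM in Unt and 2.80 to 3.72 in DOX, with 3.79 to 4.48 in D_DXZ and 2.23 to 6.00 in D_MgHCF. Reads on mitochondrial genes made up 1.19% to 1.41% in Unt and 2.73% to 2.89% in DOX, with 2.73% to 3.27% in D_DXZ and 1.76% to 3.16% in D_MgHCF. The 10 genes with most reads took 3.56% to 4.03% of a library in Unt and 7.01% to 7.22% in DOX, with 6.55% to 7.33% in D_DXZ and 3.62% to 5.59% in D_MgHCF. The part of these shifts in the results below was not tested.

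In untreated cells Npm1 had the highest FPKM of the 10 genes, with 230, 218 and 181 in the 3 libraries (mean 210.0 ± 25.5, SD). Nop56 followed at 88.4, 101 and 104 FPKM (97.6 ± 8.10) and Ncl at 75.9, 72.0 and 60.9 FPKM (69.6 ± 7.84), and the libraries of these 3 genes did not overlap with one another. Below them Ubtf (31.1 ± 2.75 FPKM) overlapped with Polr1c (27.6 ± 2.41), Fbl (23.3 ± 2.09) overlapped with Rrn3 (21.5 ± 0.675), Nop58 stood at 17.5 ± 2.32, and the catalytic subunits Polr1a (11.6 ± 1.03) and Polr1b (10.8 ± 1.31), which overlapped with each other, stood lowest. Under DOX the order was altered. Nop56 went from the second to the fourth place and Polr1c from the fifth to the ninth, while Fbl moved from the sixth to the third, with libraries of Fbl, Nop56 and Ubtf then overlapping. Order within a library does not depend on library scaling, but it does depend on the gene lengths by which FPKM divides. These were 10188 bases for Ncl, 4099 for Nop56 and 2665 for Npm1. In reads, Unt libraries had 15149 to 19467 on Ncl, 9118 to 10393 on Nop56 and 11817 to 15450 on Npm1.

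**Figure D1:**
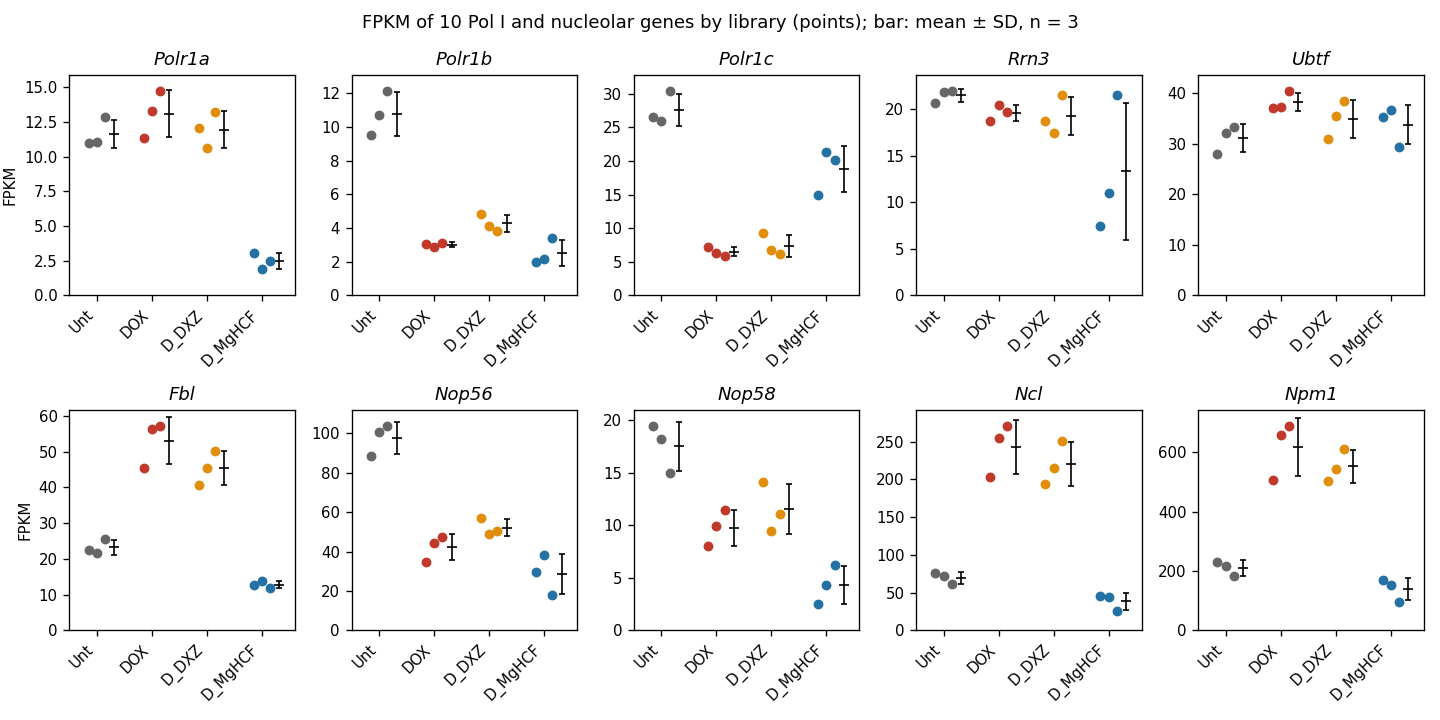
Deposited FPKM of each of the 10 genes (y axis, from 0, 1 scale per gene) in the Unt, DOX, D_DXZ and D_MgHCF libraries (points), with the mean and SD of each group (n = 3) as a bar. Polr1b, Polr1c and Nop56 lie below Unt in all 9 treated libraries, Ncl, Npm1 and Fbl lie above Unt in DOX and D_DXZ and below it in D_MgHCF, and 1 D_MgHCF library of Rrn3 stands at 21.5 FPKM while the other two are at 7.44 and 11.0.

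The genes lie on 7 chromosomes of the mouse assembly GRCm38, by the coordinates in the deposited table. The Pol I genes are Polr1a (ENSMUSG00000049553) at chr6:71909053-71984935 (+), Polr1b (ENSMUSG00000027395) at chr2:129100995-129126594 (+) and Polr1c (ENSMUSG00000067148) at chr17:46243920-46248054 (-). The initiation factors are Rrn3 (ENSMUSG00000022682) at chr16:13780708-13814839 (+) and Ubtf (ENSMUSG00000020923) at chr11:102304560-102319742 (-). The genes of the snoRNA-guided methylase are Fbl (ENSMUSG00000046865) at chr7:28169710-28179269 (+), Nop56 (ENSMUSG00000027405) at chr2:130274430-130279313 (+) and Nop58 (ENSMUSG00000026020) at chr1:59684971-59719044 (+). Ncl (ENSMUSG00000026234) lies at chr1:86344719-86359400 (-) and Npm1 (ENSMUSG00000057113) at chr11:33152287-33163206 (-).

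RefSeq (GRCm38.p6) windows of 250 bases upstream of the transcription start were at hand for 8 of the 10 genes, all but Fbl and Npm1. They were searched for CACGTG, the E-box hexamer that MYC and related factors bind, which reads the same on both strands. Of the 8 genes only Rrn3 held it, with 2 matches, while 6.86% of 27025 genes held it in a window of this length. The windows printed are those of Polr1b, Polr1c, Nop56 and Nop58, the genes that were called lower under DOX by every scaling (below), and that of Rrn3, with the E-boxes in capitals. They are mouse reference sequence, 5′ to 3′ on the strand of the gene, and not sequence of the cells measured.
Polr1b, chr2:129100746-129100995 (+): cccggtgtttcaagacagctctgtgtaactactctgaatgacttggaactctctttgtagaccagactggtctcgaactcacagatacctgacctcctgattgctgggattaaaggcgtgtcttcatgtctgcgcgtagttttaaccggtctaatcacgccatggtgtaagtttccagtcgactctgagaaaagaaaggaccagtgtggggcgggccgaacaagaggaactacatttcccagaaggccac
Polr1c, chr17:46248046-46248295 (-): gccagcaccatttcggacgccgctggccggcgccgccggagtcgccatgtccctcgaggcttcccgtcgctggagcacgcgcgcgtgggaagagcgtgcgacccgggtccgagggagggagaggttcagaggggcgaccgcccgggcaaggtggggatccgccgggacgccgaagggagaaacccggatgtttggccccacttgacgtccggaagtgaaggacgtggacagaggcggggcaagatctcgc
Nop56, chr2:130274162-130274411 (+): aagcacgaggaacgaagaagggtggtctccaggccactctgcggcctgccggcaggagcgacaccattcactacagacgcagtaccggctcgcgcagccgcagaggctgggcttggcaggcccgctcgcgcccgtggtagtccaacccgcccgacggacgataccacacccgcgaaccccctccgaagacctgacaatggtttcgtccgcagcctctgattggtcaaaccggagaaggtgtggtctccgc
Nop58, chr1:59684756-59685005 (+): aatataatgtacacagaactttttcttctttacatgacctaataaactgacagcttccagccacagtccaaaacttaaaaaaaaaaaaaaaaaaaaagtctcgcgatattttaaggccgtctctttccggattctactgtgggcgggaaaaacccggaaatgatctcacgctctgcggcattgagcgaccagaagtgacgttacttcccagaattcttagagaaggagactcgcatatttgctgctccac
Rrn3, chr16:13780449-13780698 (+): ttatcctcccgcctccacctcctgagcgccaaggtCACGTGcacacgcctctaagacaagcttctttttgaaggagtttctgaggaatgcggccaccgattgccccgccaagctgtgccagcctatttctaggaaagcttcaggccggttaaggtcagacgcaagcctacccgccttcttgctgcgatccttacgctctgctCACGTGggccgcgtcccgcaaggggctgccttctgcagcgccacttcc
The GC content of these windows was 49.6% for Polr1b, 70.4% for Polr1c, 65.2% for Nop56, 41.2% for Nop58 and 59.6% for Rrn3. The absence of the hexamer says only that these letters are not in the window.

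The comparison of DOX with Unt asks how the mRNAs of this machinery stood after 6 h of doxorubicin. Polr1b and Polr1c, subunits of Pol I, and Nop56, a core protein of the box C/D snoRNPs (the particles of snoRNA and protein that methylate ribosomal RNA), fell to between 0.235 and 0.431 times their untreated FPKM. Ncl, Npm1 and Fbl rose to between 2.28 and 3.50 times theirs on the deposited scaling, whereas Fbl was at -0.18 (log2) as TPM and Npm1 at -0.24 after quantile normalization. In a limma fit over all 12 libraries with Benjamini-Hochberg adjustment, 3 of the 10 genes were called higher and 4 lower at an adjusted p under 0.05, where 18.6% of the 25044 genes tested were called higher and 19.9% lower. The libraries of 9 of the 10 genes did not overlap between DOX and Unt, against 51.8% of all genes tested. Of the genes tested, 12434 had an FPKM of at least 1 in 3 libraries. Shares among genes at the level of the 10 were not computed, here or in the comparisons below. The median log2 difference of the 10 genes was 0.01, with that of all genes tested at 0. Under the other scalings (TPM, quantile, summed reads) 4.44%, 16.7% and 8.29% of all genes were called higher and 40.8%, 17.3% and 33.2% lower. None of the 3 rises was called under all 4 scalings, whereas the 4 falls (Polr1b, Polr1c, Nop56 and Nop58) were.

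With dexrazoxane added, the comparison of D_DXZ with Unt gave 3 genes called lower under all 4 scalings, Polr1b, Polr1c and Nop56. Ncl, Npm1 and Fbl were called higher on the deposited scaling, whereas Fbl was at -0.23 as TPM and Npm1 at -0.12 after quantile normalization. Over all genes tested, 15.9% were called higher and 18% lower, with 3.65%, 14% and 7.64% higher and 40.3%, 14.6% and 31.7% lower under those other scalings. Against DOX itself no member was called in D_DXZ, and neither was any of the 25044 genes tested (limma, adjusted p). At an unadjusted p under 0.05 a single member was called, Polr1b (higher), where 4.56% of all genes were higher and 4.97% lower. Its log2 difference between D_DXZ and DOX was 0.39 (95% interval 0.04 to 0.73, adjusted p = 0.481 in limma). For the other 9 members the difference lay between -0.22 (Fbl) and 0.31 (Nop56), and the widest of their 95% intervals was that of Rrn3 (-0.64 to 0.58). The spread behind these intervals is shared by all groups, and that of Rrn3 was largest in D_MgHCF (SD 7.33 FPKM). DOX and D_DXZ are each compared with the same Unt libraries.

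With MgHCF added, 9 of the 10 genes were called lower than Unt and none higher, where 15.7% of all genes tested were called lower and 24.3% higher. Ubtf was the exception. The largest differences were those of Polr1a, Nop58, Nop56 and Polr1b, at log2 -1.87 to -1.76, and the median of the 10 genes was -0.855 beside 0.05 for all genes tested. The libraries did not overlap for 8 of the 10 genes, all lower, against 19.3% of all genes. Under all 4 scalings, 7 of the genes were called lower, where the other 3 scalings called 19.2%, 18.5% and 16.5% of all genes lower and 26.6%, 17% and 29.3% higher. Rrn3 (adjusted p = 0.0452) and Npm1 (adjusted p = 0.0445) passed limma narrowly on the deposited scaling, and the calls of both were lost in most fits that left out 1 library.

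Against DOX, the D_MgHCF libraries had 5 genes called lower (Polr1a, Fbl, Nop58, Ncl and Npm1) and 1 higher (Polr1c), where 20.1% of all genes tested were called lower and 31.4% higher. Against D_DXZ, 7 were lower and 1 higher, where 19% of all genes were lower and 29.4% higher. As TPM, after quantile normalization and on summed reads, 6.75%, 19.6% and 9.59% of all genes were lower and 53.9%, 18.5% and 49.4% higher in D_MgHCF than in DOX, and 6.23%, 19.3% and 9.51% lower and 51.1%, 18.3% and 45.6% higher than in D_DXZ. Under all 4 scalings and in every fit that left out 1 of the 12 libraries, Polr1a, Fbl, Ncl and Npm1 were called lower and Polr1c higher in D_MgHCF than in DOX, and likewise than in D_DXZ. For Nop58 the difference of D_MgHCF from DOX was not called as TPM (-0.02) or on summed reads (-0.22).

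**Figure D2:**
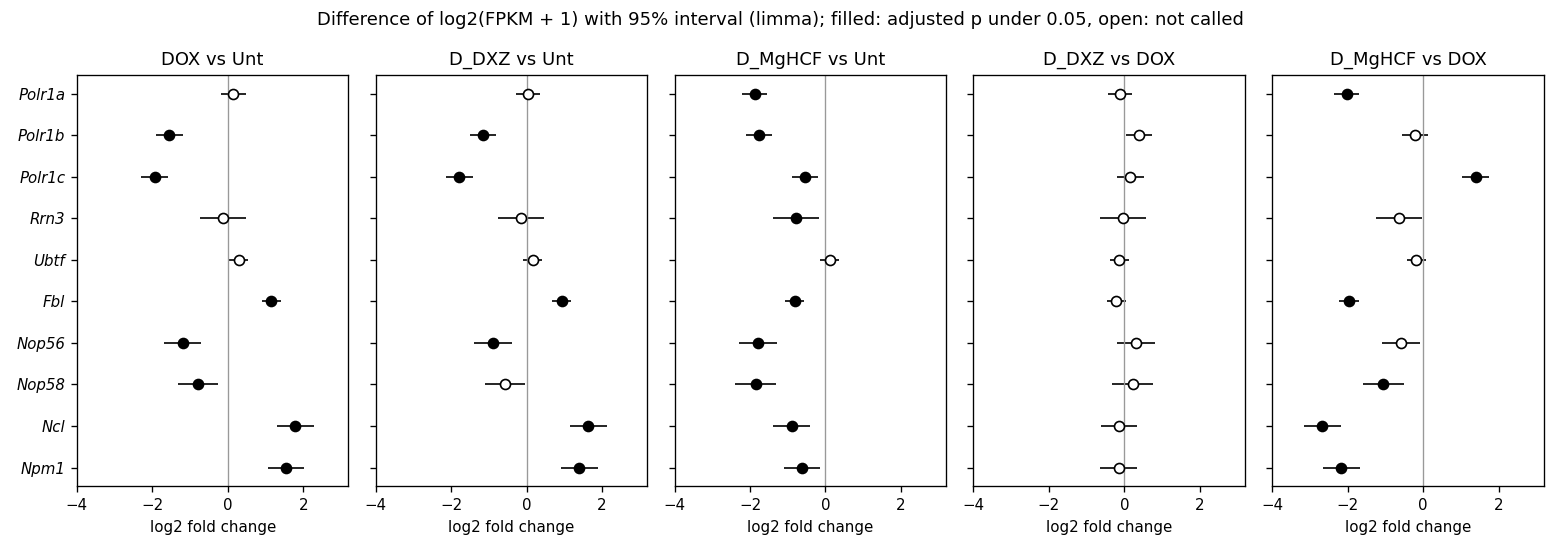
Difference of log2(FPKM + 1) between the groups named above each panel (x axis, log2) for the 10 genes, with the 95% interval of the limma fit over 12 libraries (n = 3 per group). Filled points are called at an adjusted p under 0.05, open points are not; no point is filled for D_DXZ vs DOX, and in D_MgHCF vs DOX only Polr1c is filled to the right of 0.

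Polr1a encodes the largest subunit of Pol I, which holds much of the active site. Its FPKM was 11.0, 11.1 and 12.8 in Unt, 11.3, 13.3 and 14.7 in DOX, 12.0, 10.6 and 13.2 in D_DXZ and 3.08, 1.89 and 2.47 in D_MgHCF. The 3 D_MgHCF libraries lay below all others, whereas those of the other 3 groups overlapped. The log2 difference of D_MgHCF was -1.87 (SE 0.145, adjusted p = 2.24e-05 in limma) from Unt and -2.03 (adjusted p = 4.85e-06) from DOX, and both were called lower under all 4 scalings. Between DOX and Unt it was 0.15 (95% interval -0.17 to 0.48, adjusted p = 0.507), which turned to -1.17 as TPM and -0.72 on summed reads, both called lower. Set against the median gene of each scaling, it lay between -0.05 and 0.13 in DOX. An antisense gene, Gm26628, overlaps Polr1a and had 1 to 44 reads per library, beside 570 to 3721 on Polr1a.

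Polr1b encodes the second largest subunit, which forms the active centre together with that of Polr1a. It had 9.52, 10.7 and 12.1 FPKM in Unt, 3.08, 2.86 and 3.13 in DOX, 4.87, 4.11 and 3.86 in D_DXZ and 1.98, 2.17 and 3.40 in D_MgHCF. All 9 treated libraries lay below the Unt libraries, and the D_DXZ libraries lay above those of DOX. The fall in DOX was -1.55 on the log2 scale (SE 0.155, adjusted p = 2.98e-05 in limma), with -1.28 to -2.97 under the other scalings, and that in D_MgHCF was -1.76 (adjusted p = 4.05e-05). Between D_MgHCF and DOX the libraries overlapped, and the difference of -0.21 (adjusted p = 0.276) became 0.81 as TPM and 0.49 on summed reads, both called higher, but -0.65 after quantile normalization (adjusted p = 0.0156 in limma), called lower. It was also called lower without D_MgHCF replicate 3 (-0.39, adjusted p = 0.0174). A stretch of 193 bases of Polr1b matched Plekha5, so reads there are uncertain.

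Polr1c encodes a subunit shared by Pol I and Pol III that serves in the assembly of both. The libraries of Unt had 26.5, 26.0 and 30.4 FPKM, those of DOX 7.20, 6.36 and 5.88, those of D_DXZ 9.22, 6.80 and 6.18 and those of D_MgHCF 14.9, 21.3 and 20.1. It was the only one of the 10 genes whose D_MgHCF libraries lay between those of DOX and Unt without overlap with either. The fall in DOX was -1.94 on the log2 scale (SE 0.160, adjusted p = 1.34e-05 in limma) and was called under all 4 scalings (-1.94 to -3.35). The difference of D_MgHCF from DOX was 1.39 (SE 0.160, adjusted p = 5.49e-05), and 1.54 to 2.64 under the other scalings. From Unt, D_MgHCF differed by -0.54 (adjusted p = 0.022), a call that was lost on summed reads (adjusted p = 0.072), without Unt replicate 3 (adjusted p = 0.079) and without D_MgHCF replicate 1 (adjusted p = 0.0722).

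Since a ratio of genes within a library is unaltered by any factor applied to the whole library (though not by quantile normalization), the subunits of Pol I were also set against each other. The choice of these ratios was made after the values had been seen. The ratio of Polr1a to Polr1b was 1.03 to 1.16 in Unt and 3.68 to 4.71 in DOX, with 2.48 to 3.43 in D_DXZ and 0.725 to 1.55 in D_MgHCF. That of Polr1a to Polr1c was 0.416 to 0.427 in Unt and 1.57 to 2.50 in DOX, with 1.31 to 2.14 in D_DXZ and 0.0884 to 0.206 in D_MgHCF. Both subunit ratios were thus higher in every DOX and D_DXZ library than in any Unt library, and the second was lower in every D_MgHCF library than in any other library. The mean ratio of Polr1a to Polr1c differed 4.79-fold between DOX and Unt and 15.4-fold between DOX and D_MgHCF (means on the log2 scale). The ratio of Polr1b to Polr1c was 0.359 to 0.413 in Unt and 0.427 to 0.532 in DOX, and lay at 0.102 to 0.169 in D_MgHCF. Of 48 comparisons of 8 ratios, 33 had libraries without overlap, each with a two-sided exact permutation p of 0.1 (Benjamini-Hochberg adjusted over the 48, 0.145), the smallest that 3 against 3 libraries can give. How often ratios of other gene pairs lack overlap was not computed, so this count is not a result about these complexes.

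**Figure D3:**
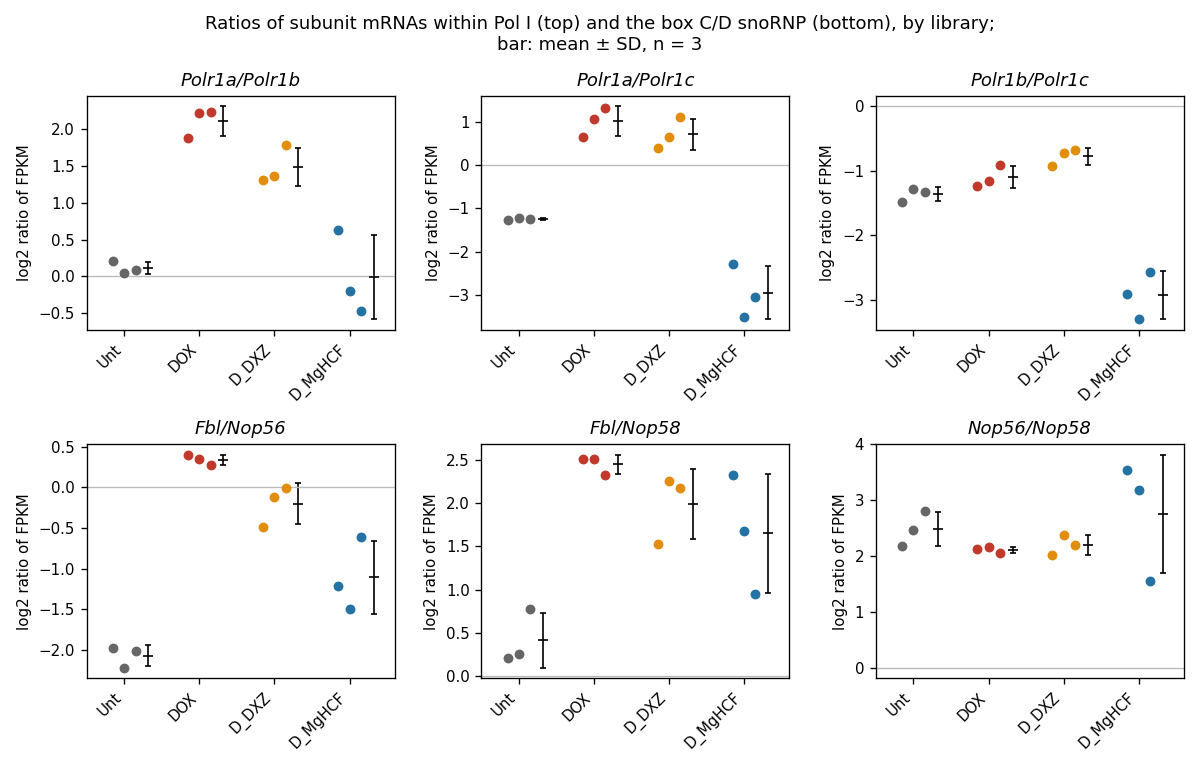
Log2 ratio of FPKM between subunits (y axis) in each library (points), with the mean and SD per group (n = 3), for Pol I (top) and the box C/D snoRNP (bottom). The ratio of Polr1a to Polr1c stands near -1.25 in all 3 Unt libraries, above 0 in DOX and D_DXZ and at -2.28 or less in D_MgHCF, and that of Fbl to Nop56 is lowest in Unt and highest in DOX.

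Rrn3 encodes the factor that carries Pol I to the promoter. Its FPKM was 20.7, 21.8 and 21.9 in Unt, 18.7, 20.4 and 19.7 in DOX, 18.7, 17.5 and 21.5 in D_DXZ and 7.44, 11.0 and 21.5 in D_MgHCF. The DOX libraries lay just below those of Unt, and the D_MgHCF libraries spanned from far below all others to the level of Unt. In DOX the log2 difference was -0.13 (95% interval -0.73 to 0.48, adjusted p = 0.831 in limma), but it was called lower as TPM (-1.47) and on summed reads (-1.03). The difference of D_MgHCF from DOX was -0.65 (adjusted p = 0.0706 in limma), and -1.03 (adjusted p = 0.000153) without D_MgHCF replicate 3, the library with 21.5 FPKM. With all libraries it was called lower when only genes with an FPKM of 1 or more in 3 libraries were tested (adjusted p = 0.0386) and with voom (adjusted p = 0.0489), whereas it was 0.51 as TPM and 0.26 on summed reads, neither called. From Unt the difference of -0.77 went to -1.16 without D_MgHCF replicate 3 and to -0.45 (adjusted p = 0.139) without D_MgHCF replicate 1, and the call was lost in 11 of the 12 fits that left out 1 library.

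Ubtf, which encodes the architectural factor UBF of active ribosomal RNA genes, differed least between groups on the deposited scaling, whereas as TPM its largest difference exceeded those of Npm1 and Fbl. It stood at 28.0, 32.1 and 33.2 FPKM in Unt, 37.1, 37.2 and 40.3 in DOX, 30.9, 35.4 and 38.4 in D_DXZ and 35.3, 36.7 and 29.3 in D_MgHCF. The DOX libraries lay above those of Unt, whereas D_DXZ and D_MgHCF overlapped with Unt. None of the 6 comparisons was called in the limma fit over all 12 libraries on the deposited scaling, where the log2 differences ranged from -0.18 (D_MgHCF from DOX) to 0.29 (DOX from Unt, adjusted p = 0.0644). On that scaling DOX was called higher than Unt in a limma fit of these 2 groups alone (adjusted p = 0.0301) and without D_MgHCF replicate 3 (0.0273). The sign of the difference of DOX from Unt depended on the scaling, since Ubtf was called lower in DOX as TPM (-1.06), after quantile normalization (-0.55) and on summed reads (-0.63). Likewise, D_MgHCF was called higher than DOX as TPM (1.02), after quantile normalization (0.64) and on summed reads (0.76). The ratio of Ubtf to Rrn3 was 1.35 to 1.51 in Unt and 1.82 to 2.04 in DOX.

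Fbl encodes fibrillarin, the methyltransferase of the box C/D snoRNPs. Its FPKM was 22.5, 21.6 and 25.6 in Unt, 45.5, 56.4 and 57.2 in DOX, 40.7, 45.4 and 50.0 in D_DXZ and 12.7, 13.7 and 11.9 in D_MgHCF. No Fbl library of DOX or D_DXZ overlapped with one of Unt, and those of D_MgHCF lay below all others. The rise in DOX was 1.15 (log2, SE 0.115, adjusted p = 2.88e-05 in limma) on the deposited scaling, but 0.34 after quantile normalization (called), 0.23 on summed reads (not called) and -0.18 as TPM (not called). The fall in D_MgHCF was -0.82 from Unt (adjusted p = 0.000452) and -1.97 from DOX (adjusted p = 2.60e-06), each called under all 4 scalings. A stretch of 690 bases of Fbl transcripts matched a transcript of Tulp4 at 99.6% identity, and Tulp4, on which 2049 to 5326 reads per library were counted, had mean FPKM of 9.11 in Unt, 9.37 in DOX, 9.84 in D_DXZ and 8.56 in D_MgHCF. Reads of that stretch cannot be assigned to either gene with certainty.

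Nop56 encodes a protein of the same particles that, with NOP58, bridges fibrillarin to the snoRNA. It had 88.4, 101 and 104 FPKM in Unt, 34.7, 44.2 and 47.4 in DOX, 56.9, 49.1 and 50.3 in D_DXZ and 29.6, 38.5 and 18.1 in D_MgHCF. All 9 treated libraries lay below those of Unt, and DOX and D_MgHCF overlapped. The fall was -1.20 (log2, SE 0.225, adjusted p = 0.00141 in limma) in DOX, -0.89 (adjusted p = 0.0102) in D_DXZ and -1.79 (adjusted p = 0.000246) in D_MgHCF, and each was larger under every other scaling but for D_MgHCF on summed reads (-1.78). Between D_MgHCF and DOX the difference of -0.59 (adjusted p = 0.0505) missed the threshold narrowly. It was called lower with a pseudocount of 0.1 (adjusted p = 0.0443 in limma), with the FPKM minimum of 1 (0.0284), with voom (0.0381) and without DOX replicate 1 (0.0394) or D_MgHCF replicate 2 (0.00889), but had the opposite sign under the other scalings (0.18 to 0.61), called higher as TPM. Near-identical copies of Nop56 held 1.38% as many reads as Nop56.

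Nop58, the partner of Nop56, had 19.4, 18.2 and 14.9 FPKM in Unt, 7.98, 9.87 and 11.4 in DOX, 14.1, 9.48 and 11.1 in D_DXZ and 2.54, 4.26 and 6.17 in D_MgHCF. The D_MgHCF libraries lay below all others and those of DOX and D_DXZ below those of Unt. It fell in DOX by 0.79 on the log2 scale (adjusted p = 0.025 in limma), a call that was lost in 4 of the 12 fits that left out 1 library (without Unt replicate 1 or 2, or without DOX replicate 1 or 2, adjusted p = 0.0585 to 0.0901). In D_MgHCF it fell by 1.85 from Unt (SE 0.243, adjusted p = 0.000314), which held under all 4 scalings. Short stretches of Nop58 transcripts (170 to 196 bases) matched 26 other genes at 95% identity or more, so part of its reads could be shared.

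Within the box C/D particle the ratio of Fbl to Nop56 was 0.215 to 0.255 in Unt and 1.21 to 1.31 in DOX, with 0.715 to 0.994 in D_DXZ and 0.356 to 0.655 in D_MgHCF. No group overlapped with another in this ratio, and the mean of DOX was 5.31 times that of Unt (log2 scale). The ratio of Fbl to Nop58 was 1.16 to 1.72 in Unt and 5.01 to 5.71 in DOX, with 2.88 to 4.79 in D_DXZ and 1.92 to 5.01 in D_MgHCF, above Unt in all treated libraries. Nop56 to Nop58 differed less, with 4.55 to 6.95 in Unt, 4.15 to 4.47 in DOX and 2.94 to 11.6 in D_MgHCF. Within Nop56, Nop58 and Ncl lie 12 snoRNA genes on the same strand (5 in Nop56, 4 in Nop58 and 3 in Ncl). Of these, 8 were at 0 in every library and none exceeded 17 reads in a library, so these libraries, made from poly(A) RNA, do not show whether the snoRNAs moved with their host genes.

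Ncl encodes nucleolin, which binds the ribosomal RNA precursor and its genes. Its FPKM was 75.9, 72.0 and 60.9 in Unt, 203, 256 and 271 in DOX, 194, 215 and 251 in D_DXZ and 45.5, 44.5 and 25.0 in D_MgHCF. The Ncl libraries of DOX and D_DXZ lay above all of Unt and those of D_MgHCF below. In DOX it was higher by 1.79 (log2, SE 0.221, adjusted p = 9.60e-05 in limma) on the deposited scaling and by 0.84 on summed reads (called), but by 0.43 as TPM and 0.29 after quantile normalization, neither of them called. From Unt, D_MgHCF differed by -0.89 (adjusted p = 0.0102), and from DOX by -2.67 (adjusted p = 8.87e-06), both called under all 4 scalings. In a fit of the Unt and D_MgHCF libraries alone the former was not called (adjusted p = 0.0525).

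Npm1 encodes nucleophosmin, a chaperone of the outer, granular part of the nucleolus. It had 230, 218 and 181 FPKM in Unt, 505, 659 and 688 in DOX, 502, 543 and 612 in D_DXZ and 168, 154 and 96.4 in D_MgHCF. As with Ncl, the groups with doxorubicin alone or with dexrazoxane were above Unt and D_MgHCF was below it. The rise in DOX was 1.55 (log2, SE 0.218, adjusted p = 0.000227 in limma) on the deposited scaling and 0.60 on summed reads, 0.18 as TPM (not called) and -0.24 after quantile normalization (not called). D_MgHCF was lower than DOX by all 4 scalings (-0.62 to -2.17, adjusted p = 2.54e-05 on the deposited one). Its difference of -0.62 from Unt lost its call in 10 of the 12 fits without 1 library, and was -0.38 without D_MgHCF replicate 3. Reads on 5 pseudogenes of near-identical sequence came to 8.73% of the reads on Npm1 itself.

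Npm1 and Ncl had similar profiles, with a ratio of 2.98 to 3.03 in Unt and 2.48 to 2.58 in DOX, with 2.43 to 2.59 in D_DXZ and 3.45 to 3.86 in D_MgHCF. Their joint share of the reads on the 10 genes, which no factor applied to a whole library alters, was 46.0% to 53.9% in Unt and 78.9% to 80.7% in DOX, with 76.2% to 79.6% in D_DXZ and 47.3% to 62.5% in D_MgHCF. The 10 genes together took 0.317% to 0.356% of all reads in Unt and 0.340% to 0.369% in DOX, with 0.349% to 0.393% in D_DXZ and 0.153% to 0.214% in D_MgHCF. The share in D_MgHCF lay below every other library, whereas Unt and DOX overlapped.

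**Figure D4:**
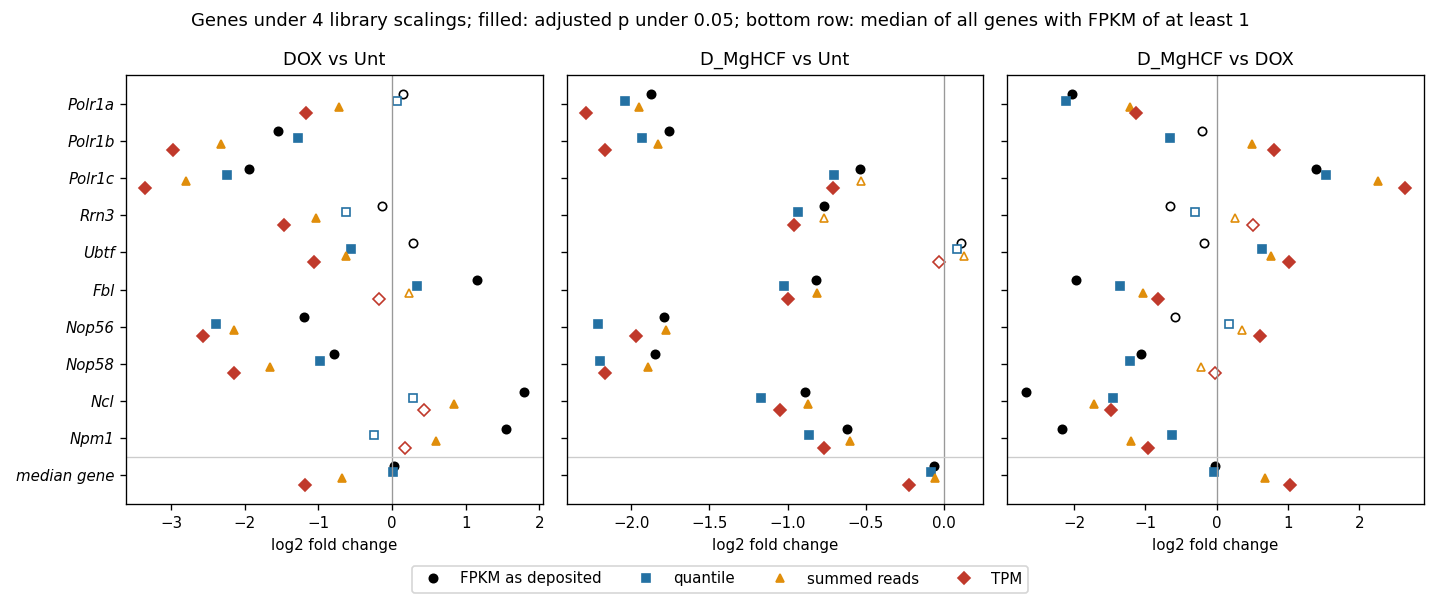
Log2 difference of the 10 genes (x axis) in 3 comparisons under 4 library scalings (marker shapes), with filled markers called at an adjusted p under 0.05 and, in the bottom row, the median over 12434 genes at an FPKM of 1 or more in 3 libraries. In DOX vs Unt the markers of TPM and summed reads lie to the left of the deposited FPKM for all 10 genes, as does the median gene, and in D_MgHCF vs Unt the 4 scalings lie closer together.

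Set against the median gene of each scaling, the differences between DOX and Unt were -1.30 to -1.80 for Polr1b, -1.96 to -2.26 for Polr1c, -1.23 to -2.41 for Nop56 and -0.81 to -1.0 for Nop58 over the 4 scalings. For Fbl they were 0.32 to 1.13 and for Ncl 0.27 to 1.76. For Npm1 they were 1.27 to 1.52 on the deposited scaling, summed reads and TPM, but -0.26 after quantile normalization, which forces 1 distribution on all libraries. In D_MgHCF against Unt, 9 genes were below the median gene under each scaling, from -0.47 (Polr1c, summed reads) to -2.13 (Nop56, quantile), and Ubtf was at 0.17 to 0.19.

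The other genes of the pathway were followed in 5 lists of 103 genes in all, none of them among the 10, and all 103 were tested. In DOX against Unt, 5 of the 15 other Pol I subunits and factors were called higher and 7 lower, as were 7 and 2 of the 12 other snoRNP proteins. In the small subunit processome (31 genes) 5 were higher and 14 lower, in large subunit assembly (27 genes) 9 and 13, and among other nucleolar proteins (18 genes) 6 and 9. Over all 103 genes, 31.1% were called higher and 43.7% lower, beside 18.6% and 19.9% of all genes tested, and the median of the 103 was -0.24 (log2). The genes tested include many low ones, and shares among genes at the level of the lists were not computed. The division between higher and lower followed the scaling, since 32 of the 103 genes were higher and 45 lower as deposited, 8 and 51 after quantile normalization, 7 and 73 on summed reads and 2 and 86 as TPM. The lower share of the 103 genes was 43.7%, 49.5%, 70.9% and 83.5% in that order, where all genes tested had 19.9%, 17.3%, 33.2% and 40.8%.

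In D_MgHCF against Unt, 5 of the 103 genes were called higher and 61 lower, where the background was 24.3% and 15.7%, and the median was -0.62. The lower genes were 21 of 31 in the small subunit processome, 19 of 27 in large subunit assembly, 11 of 18 other nucleolar proteins, 5 of 12 snoRNP proteins and 5 of 15 Pol I subunits and factors. Here the other scalings gave 58 to 65 lower and 3 to 5 higher. Between D_MgHCF and DOX, 19 genes were higher and 50 lower as deposited, but 62 were higher and 14 lower as TPM. That is 18.4% higher and 48.5% lower as deposited, where all genes had 31.4% and 20.1%, and 60.2% and 13.6% as TPM, where all genes had 53.9% and 6.75%. D_DXZ differed from DOX in none of the 103 genes in limma at an adjusted p under 0.05 (20 at an unadjusted p, where 9.54% of all genes passed), and from Unt in 23 higher and 44 lower.

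**Figure D5:**
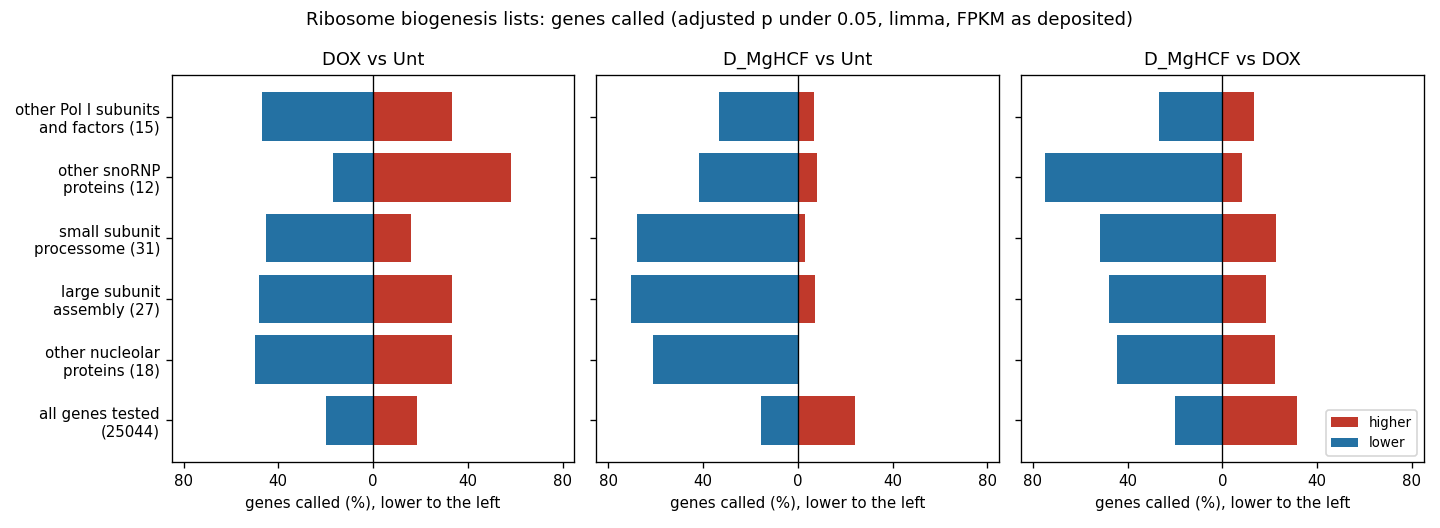
Percent of the genes of each ribosome biogenesis list called higher (right) and lower (left) at an adjusted p under 0.05 (limma, FPKM as deposited), with all 25044 genes tested in the bottom row and the number of genes in brackets. In D_MgHCF vs Unt the bars of lower genes exceed those of higher genes in all 5 lists, while over all genes the higher side is longer.

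From each list the 2 genes of highest mean FPKM were taken. Polr2l, which encodes a small subunit common to Pol I, II and III, rose from 9.43 ± 0.353 FPKM (SD, n = 3) in Unt to 45.2 ± 4.80 in DOX and 37.1 ± 7.76 in D_MgHCF, and was called higher under all 4 scalings in both. Polr2f, another common subunit, rose from 24.8 ± 2.09 to 70.0 ± 5.76 FPKM in DOX (not called as TPM) and was at 25.1 ± 2.81 in D_MgHCF. On the deposited scaling both common subunits were thus higher in DOX, where Polr1b and Polr1c were lower. Nop10 of the box H/ACA snoRNPs, which guide pseudouridylation, rose from 28.2 ± 0.775 to 141 ± 20.8 FPKM in DOX under all 4 scalings, with 37.2 ± 11.3 in D_MgHCF (not called). Its partner Nhp2 went from 66.6 ± 9.54 to 132 ± 7.93 FPKM in DOX, a call that turned to lower after quantile normalization and was absent as TPM and on summed reads.

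Imp3, a protein of the small subunit processome, fell from 53.2 ± 1.55 FPKM in Unt to 20.2 ± 2.46 in DOX, 19.2 ± 2.23 in D_DXZ and 35.3 ± 9.06 in D_MgHCF. These 3 falls, and the higher level in D_MgHCF than in DOX, were called under all 4 scalings, as the fall in DOX and the difference of D_MgHCF from DOX were for Polr1c. Wdr46 of the same complex was at 34.2 ± 4.21 FPKM in Unt and 85.2 ± 9.04 in DOX, higher as deposited and on summed reads. The large subunit factors Rrp1 (57.3 ± 2.31 in Unt, 96.7 ± 6.91 in DOX) and Pes1 (39.3 ± 4.09 and 83.8 ± 11.2) were higher in DOX as deposited but lower as TPM (Rrp1 also after quantile normalization), and both were lower than Unt in D_MgHCF under all 4 scalings. Npm3, a relative of Npm1, had 63.9 ± 4.08 FPKM in Unt, 170 ± 15.7 in DOX and 74.3 ± 21.5 in D_MgHCF, and Nol7 28.2 ± 1.67, 80.3 ± 9.15 and 24.6 ± 5.98. In DOX both were higher as deposited and on summed reads, and not called as TPM or after quantile normalization.

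Among 11479 genes with a mean FPKM of at least 1, the profile over the 12 libraries most like that of Polr1a was that of Alg8 (Pearson r = 0.996 on log2(FPKM + 1)), followed by Fbxo4 (0.992) and Anapc1 (0.991). Alg8 had mean FPKM of 10.9 in Unt, 12.3 in DOX, 10.9 in D_DXZ and 2.70 in D_MgHCF. For Ncl the most alike were Emc2 (r = 0.999), Npm1 (0.998) and Hspd1 (0.996), the last a mitochondrial chaperonin with mean FPKM of 205, 750, 680 and 132 in the same order of groups. These are descriptions over 12 libraries that share their group structure and scaling.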

How the data were processed

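RNA of 12 H9c2 libraries (Unt, DOX, D_DXZ and D_MgHCF, 3 each) was poly(A) selected, prepared with NEBNext reagents and sequenced paired-end on a NovaSeq. The submitters' processing notes list HISAT2 2.0.5 and GRCm38/mm10. The counting program and the annotation release are not given in the sources used here. The authors deposited FPKM values of 54345 genes with their lengths and coordinates, and FPKM multiplied by length gave whole reads for 100% of the values (tolerance 0.01). The scaling contained in these FPKM is of the median-ratio kind. No sample column was left unused.

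All 12 libraries entered a single limma fit (version 3.58.1, R 4.3.3) of log2(FPKM + 1) on group, without covariates and with the prior variance following mean expression. It covered the 25044 genes detected (FPKM over 0) in 3 or more libraries. The 10 genes all passed this filter. A gene was called at an adjusted p under 0.05 (Benjamini-Hochberg over all genes tested), with no minimum fold. A log2 difference on this scale understates the change of low genes. The code was tested on simulated data. Ratios within a library were compared by two-sided exact permutation tests. Near-identical transcripts were searched with BLAST 2.17.0 in GENCODE M21 (95% identity or more along 150 bases or more). Genes overlapping a member were found by coordinates.

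The members and lists were chosen with earlier results of these data known. The named genes are all 10 members, from each list the 2 genes of highest mean FPKM, and the 3 genes most like Polr1a and Ncl over the 12 libraries, besides snoRNA genes within a member and near-identical copies. Alternatives were a pseudocount of 0.1, FPKM of at least 1, no filter, unadjusted p, a replicate block, fits of 2 groups, TPM, quantile normalization, summed reads, voom on the recovered reads, no trend, and each library left out.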

Additional observations from a re-analysis of the deposited data

Results flagged for a closer look

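The change of D_MgHCF from DOX differed from that of D_DXZ from DOX for 8 of the 10 genes, by the test of the difference itself (limma, adjusted p under 0.05), which equals the comparison of D_MgHCF with D_DXZ. By the same test 29.4% of all genes were higher and 19% lower. For Polr1c the difference was 1.24 (log2, adjusted p = 0.00014), with all 3 D_MgHCF libraries above all 3 D_DXZ libraries. For 7 genes it was negative, with all 3 D_MgHCF libraries below all 3 D_DXZ libraries. These were Polr1a at -1.91, Fbl at -1.75, Ncl at -2.53 and Npm1 at -2.01, which were called under all 4 scalings, Nop58 at -1.28, which was not called as TPM or on summed reads, and Polr1b at -0.60 and Nop56 at -0.90, which as TPM were 0.22 and 0.12. How often other genes lack overlap between D_MgHCF and D_DXZ was not computed, so the lack of overlap is not a result about these genes.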

How the results depend on the processing

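Over the 60 tests of the 10 genes and 23 alternatives each, 1248 of 1380 values kept their direction and their side of the threshold, 52 lost a call and 30 gained one in the same direction, and 50 changed sign. Of these 50, 25 were called in neither fit (21 under another library scaling, 4 with 1 library left out) and 25 were called in at least 1, all under another library scaling. As TPM, the latter log2 differences were Polr1a -1.17, Ubtf -1.06 and Fbl -0.18 in DOX against Unt, Polr1a -1.12, Ubtf -1.01 and Fbl -0.23 in D_DXZ against Unt, Polr1b 0.81, Ubtf 1.02 and Nop56 0.61 in D_MgHCF against DOX, and Polr1b 0.22, Ubtf 0.98 and Nop56 0.12 in D_MgHCF against D_DXZ. After quantile normalization they were Ubtf -0.55 and Npm1 -0.24 in DOX against Unt, Ubtf -0.51 and Npm1 -0.12 in D_DXZ against Unt, and Ubtf 0.64 against DOX and 0.59 against D_DXZ in D_MgHCF. On summed reads they were Polr1a -0.72 and Ubtf -0.63 in DOX against Unt, Polr1a -0.67 and Ubtf -0.58 in D_DXZ against Unt, Polr1b 0.49 and Ubtf 0.76 in D_MgHCF against DOX, and Ubtf 0.71 in D_MgHCF against D_DXZ. Calls lost in the same direction were 5 as TPM, 3 after quantile normalization and 8 on summed reads, and calls gained were 3, 1 and 3. The pooled 1248 of 1380 says little about the scaling, since 12 of the 23 alternatives left out 1 library.

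Counts of the 10 genes moved with the scaling too, and the shares of all genes under each scaling are given above. In DOX against Unt 0 were higher and 7 lower as TPM, 1 higher after quantile normalization and 7 lower on summed reads. Quantile normalization also called Polr1b, Polr1c, Ubtf, Nop56 and Nop58 lower there, and summed reads called Ncl and Npm1 higher. In D_DXZ against Unt 1 was higher and 7 lower as TPM, 1 higher after quantile normalization and 7 lower on summed reads. Here quantile normalization also called Polr1b, Polr1c, Ubtf and Nop56 lower, and summed reads called Ncl and Npm1 higher. In D_MgHCF against DOX 4 were higher as TPM, 2 after quantile normalization and 3 on summed reads, and against D_DXZ 2 were higher under each of these, with 4 lower as TPM and 4 on summed reads. After quantile normalization Polr1a, Polr1b, Fbl, Nop58, Ncl and Npm1 were called lower than D_DXZ. A fit of the 2 groups alone left 5 lower in D_MgHCF against Unt, and the share of all genes in that fit was not computed. An unadjusted p gave 1 higher in D_DXZ against DOX, where 4.56% of all genes were higher.

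Of the 103 pathway genes, in DOX against Unt 2 were higher and 86 lower as TPM, 8 higher after quantile normalization, and 7 higher and 73 lower on summed reads. In D_DXZ against Unt the counts were 2 and 88, 8 higher, and 4 and 74 in the same order. In D_MgHCF 3 were higher than Unt as TPM. Against DOX, 62 were higher and 14 lower as TPM, and 51 and 19 on summed reads. Against D_DXZ they were 55 and 13 as TPM, and 39 and 21 on summed reads. As shares, 53.4% and 37.9% of the 103 were higher than D_DXZ as TPM and on summed reads, where 51.1% and 45.6% of all genes were, and 12.6% and 20.4% lower, where 6.23% and 9.51% were. Against DOX on summed reads 49.5% were higher and 18.4% lower, where all genes had 49.4% and 9.59%.

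With 1 library left out, the members called were 3 to 4 higher and 3 to 4 lower in DOX against Unt, 3 higher and 3 to 4 lower in D_DXZ against Unt, 0 higher and 6 to 8 lower in D_MgHCF against Unt, 0 and 0 in D_DXZ against DOX, 1 higher and 5 to 7 lower in D_MgHCF against DOX, and 1 higher and 7 to 8 lower in D_MgHCF against D_DXZ. Shares of all genes called were not computed for the fits with 1 library left out. The number of the replicate did not pair the libraries across all groups. Only 2 of 18 correlations between deviations of same-numbered libraries were over 0.1 (range -0.390 to 0.390). In every other group 0 of 12 libraries correlated best with their own number, and for 6 of 12 the single best correlation was with their own number. Between DOX and D_DXZ, same-numbered libraries were at 0.390, 0.0494 and 0.305, and the others at -0.403 to 0.207. Shared handling of these groups was not tested. With the replicate block 59 of the 60 results kept their direction and call, and the call of Npm1 in D_MgHCF against Unt was lost (adjusted p = 0.0683). Voom on the recovered reads called 21.1% of genes higher and 19.7% lower in DOX against Unt. The members had 155 reads or more in every library. Which scaling is right cannot be told from these values, the cause of the differences between scalings was not tested, and 3 libraries a group limit the precision.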
